A study of Saccharomyces cerevisiae with 15 samples.

Results

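Budding yeast (Saccharomyces cerevisiae, wild type) that had spent 1 h in 1.0 mM arsenite, As(III), was compared with untreated wild-type cells on 6 arrays, which are the 1 h samples among the 15 arrays of a time course. The 6 were taken by their labels and by no measured value. The other arrays followed 15 min, 30 min and 18 h in the same dose, with 3 arrays each. All cells were labelled wild type, and the labels name neither the strain nor a mutation. Each slide carried RNA of treated cells in one dye and of untreated cells in the other, so every value is a log2 ratio, likely of arsenite-treated over untreated cells, a direction taken from the dyes, the signs of the deposited values and the order of names in the titles. Treated RNA was in Cy3 on replicates 1, 3 and 6 and in Cy5 on replicates 2, 4 and 5. Whether the replicates were grown as separate cultures is not in the labels, and the p-values below may thus rest on technical spread alone. Nor do the labels give the harvest time of the untreated cells.

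Arsenite is the trivalent form of arsenic. It enters yeast cells through aquaglyceroporins such as Fps1 and binds thiol groups of proteins and of glutathione. Cells remove it with the plasma membrane exporter Arr3 and, bound to glutathione, with the vacuolar transporter Ycf1. Cysteine for glutathione is made from sulfate, and proteins that lose their fold are handled by chaperones and by the proteasome.

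The 6 arrays measured 5539 named genes, nearly all on 2 spots, and duplicate spots correlated with r of 0.971 to 0.991 across genes. The deposited ratios of a typical gene lay away from 0: the gene medians of replicates 1 to 6 were -0.28, -1.22, 0.22, -1.35, -0.69 and 0.02, with a mean of -0.55. Each array was therefore centred on its gene median, which sets every value below against the median gene and hides any shift common to most transcripts. Arrays differed in the size of their ratios, with an SD over genes of 0.854 on replicate 2 and 1.00 to 1.29 on the others. Across genes, which are not independent replicates, the 6 pairs of arrays with the same dye orientation correlated with r of 0.821 to 0.894 and the 9 pairs with opposite orientation with r of 0.722 to 0.883. The gene-specific dye effect passed the threshold in 0 genes by limma (569 at an unadjusted p under 0.05).

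Of the 5539 genes, 2659 differed in level between arsenite-treated and untreated cells by limma: 1267 genes, or 22.9% of those measured, rose relative to the median gene and 1392, or 25.1%, fell (adjusted p under 0.05, which is what "called", "rose" and "fell" mean below; a value after a gene is its mean log2 ratio). Over 2-fold, 378 genes (6.82%) rose and 676 (12.2%) fell. Without centring the split was 371 higher and 2998 lower. All 6 arrays lay above 0 for 1139 genes (20.6%) and below 0 for 1195 (21.6%). After centring, 6 genes rose over 32-fold and 0 fell that far, a contrast that depends on the centring. RPL3 (-4.97) and RPS0B (-4.95) fell just short of 32-fold, by less than the mean array median of -0.55 that centring took out. More genes fell over 16-fold, 64 against 17 that rose. Of the 64, 62 coded for cytosolic ribosomal proteins.

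HSP26, a small heat shock protein that holds unfolding proteins, showed the largest rise. Its log2 ratios were 5.16, 6.28 and 6.92 (lowest, median and highest of the 6 arrays), a mean of 6.18 ± 0.19 (limma SE) or 72.5-fold, with a limma adjusted p of 3.1e-09. All 6 arrays lay far above 0, replicate 2 lowest and replicate 6 highest. OYE3, an NADPH oxidoreductase of the old yellow enzyme family, had a lowest value of 5.23, a median of 5.98 and a highest of 7.26, and a mean of 6.05 ± 0.20 (66.2-fold). GRE2, a reductase of methylglyoxal, varied less between arrays, from 5.06 to 5.83, with a mean of 5.50 ± 0.14.

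**Figure D1:**
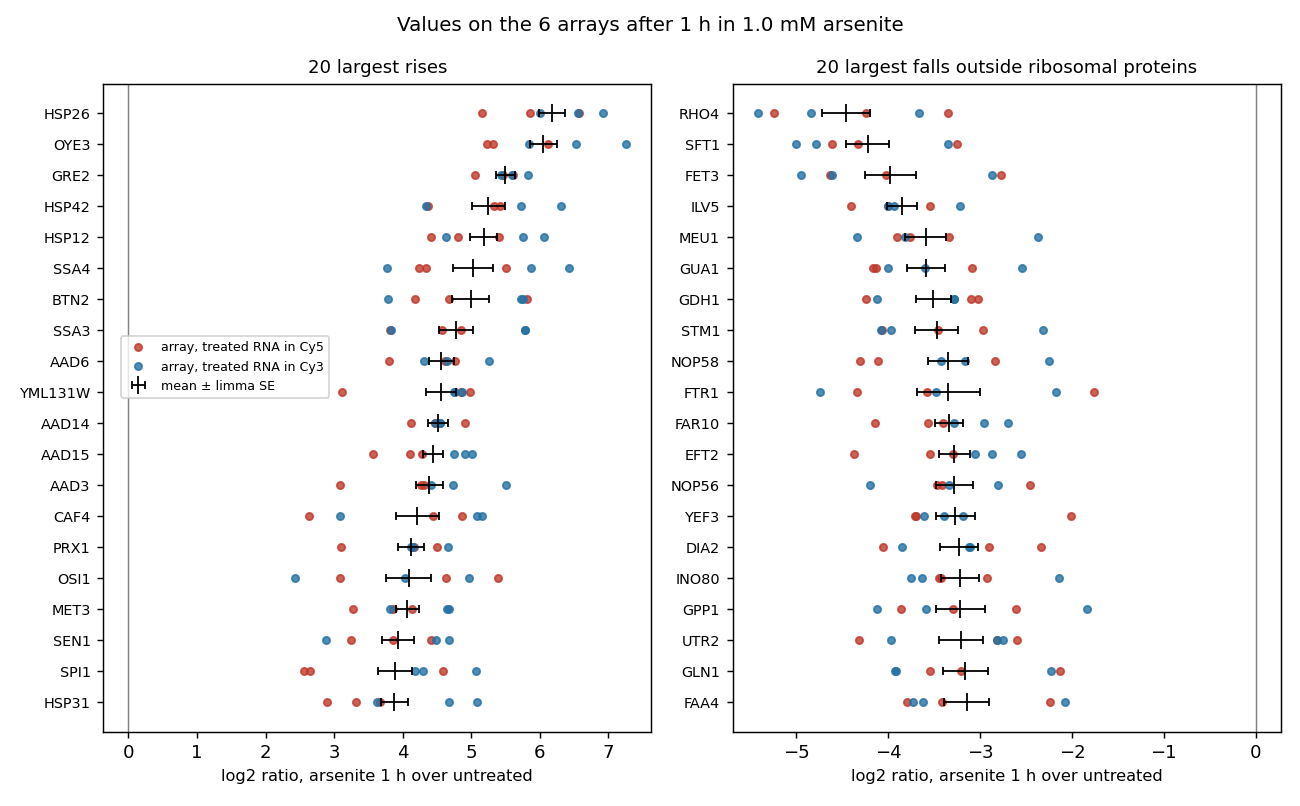
Log2 ratios of arsenite-treated (1 h) over untreated cells for the 20 genes with the largest called rises (left) and the 20 with the largest called falls outside ribosomal proteins (right). Points are the 6 arrays, coloured by the dye of the treated RNA, and bars are the mean with its limma SE. Every point lies on its gene's side of 0, and the 2 colours overlap for most genes. HSP26 heads the rises at 6.18 and RHO4 the falls at -4.46.

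Chaperones of the cytosol moved in both directions, by type. All 8 genes of small heat shock, sequestering and disaggregating proteins rose, with a median of 4.43. HSP42, another small heat shock protein, had values of 4.34, 5.38 and 6.31 (lowest, median and highest), and HSP12, a membrane-associated stress protein, 4.42, 5.11 and 6.06. BTN2, which gathers misfolded proteins into deposits, averaged 4.99 ± 0.27, and its relative CUR1 2.01 ± 0.16. HSP104, the disaggregase that works with Hsp70 and Hsp40, rose least of these genes, with 1.83 ± 0.21 or 3.55-fold, and all of its arrays lay between 0.91 and 2.63.

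The cytosolic Hsp70 genes split into a group that rose and a group that fell. SSA4, a stress-induced Hsp70, ran from 3.77 to 6.43 with a mean of 5.03 ± 0.30, and SSA3, its close relative, averaged 4.77 ± 0.25. The constitutive SSA1 and SSA2 rose less (1.78 and 1.56), as did the exchange factors FES1 (2.74), SSE2 (2.31) and SSE1 (1.81). The Hsp70 genes whose products sit on the ribosome fell: SSB2 to a mean of -2.22 ± 0.40 and SSB1 to -0.56, together with their ribosome-bound partners ZUO1 (-1.60) and SSZ1 (-1.42). SSB2 ranged from -3.39 to 0.70, below 0 on 5 of 6 arrays. Copies this alike, SSA3 and SSA4 or SSB1 and SSB2, may share signal on spotted probes.

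Of 14 genes of Hsp90 and its partners, 8 rose and 2 fell. CPR6, a cyclophilin of the Hsp90 complex, rose by 3.18 ± 0.14, and all 6 arrays lay within 2.87 to 3.52. The inducible HSP82 rose by 2.58 and the constitutive HSC82 by 1.40, with the co-chaperones STI1 (1.74) and AHA1 (1.31). CNS1 (-1.01) and the phosphatase gene PPT1 (-0.77) fell. Among J-domain proteins, which recruit Hsp70, 6 of 11 rose, led by SIS1 (2.40 ± 0.16), APJ1 (1.65) and YDJ1 (1.49), and SWA2, an uncoating factor of clathrin vesicles, fell to -1.27. The cytosolic chaperonin moved little: 4 of 14 genes of CCT and prefoldin rose (28.6%, near the 22.9% of all genes). CCT2 stood at 1.08 and the list median at 0.13 (-0.42 as deposited), and PFD1, a prefoldin subunit, fell (-0.62).

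Folding genes of the endoplasmic reticulum mostly stayed near the median gene, with 3 of 19 higher, 4 lower and a median of -0.12. These shares, 15.8% and 21.1%, lay below the 22.9% and 25.1% of all genes. The 3 that rose were ERO1, the thiol oxidase that drives disulfide formation (2.75 ± 0.18), LHS1 (1.42) and the Hsp70 gene KAR2 (0.64). The disulfide isomerase gene PDI1 stood at -0.14 and HAC1, the transcription factor of the unfolded protein response, at -0.28, neither called. In mitochondria, 8 of 14 chaperone and protease genes rose, HSP78 by 1.90 ± 0.19, MDJ1 by 1.73 and the chaperonin genes HSP10 and HSP60 by 1.31 and 1.27.

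Proteasome genes rose nearly throughout. Of the 14 genes of the catalytic core, 13 rose and 0 fell, with a median of 1.01, and of the 18 of the regulatory cap 15 rose and 1 fell, with a median of 1.11. By array, the core medians ran from 0.79 to 1.62 and the cap medians from 0.84 to 1.63. PRE8, a core subunit, had values of 1.32, 1.45 and 2.80 (lowest, median and highest), with replicate 1 well above the other arrays. RPT5, an ATPase of the cap, had 1.47, 1.56 and 2.66, again with replicate 1 on top. RPN10, a ubiquitin receptor of the cap, was the exception and fell to -0.67 ± 0.18.

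Some factors around the proteasome rose more than its subunits. DDI1, a receptor that shuttles ubiquitinated proteins, rose by 2.67 ± 0.15 and CUZ1, a zinc finger protein that binds the proteasome and Cdc48, by 2.10 ± 0.15, with its 6 arrays between 1.77 and 2.46. UMP1, an assembly chaperone of the core, rose by 1.37. Of this list 10 of 16 rose and 0 fell. Among ubiquitin and Cdc48 genes, 11 of 18 rose, with the ubiquitin-conjugating enzymes UBC5 (2.71 ± 0.20) and UBC4 (1.26), the deubiquitinase UBP6 (1.18) and the polyubiquitin gene UBI4 (1.15). The ubiquitin ligase genes UFD2 (-1.45), RSP5 (-0.95) and SAN1 (-0.43) fell, and the call of SAN1 was lost without replicate 1, 4, 5 or 6. RPN4, the transcription factor of proteasome genes, rose by 3.03 ± 0.16, from 2.44 to 3.55 across arrays.

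The route from sulfate to sulfide rose together. Of 12 genes of sulfate uptake and reduction, 9 rose, with a median of 1.94. MET3, the ATP sulfurylase that activates sulfate, had values of 3.28, 4.00 and 4.67 (lowest, median and highest) and a mean of 4.07 ± 0.17, or 16.8-fold. MET14, the kinase of the next step, averaged 3.69 ± 0.19, and MET16, which reduces the activated sulfate, 3.51 ± 0.19. Sulfite reductase rose in both subunits, MET10 by 2.56 and MET5 by 1.95, and MET17, which puts sulfide into homocysteine, by 2.59. The sulfate permease genes parted, with SUL1 at 1.44 and SUL2 at -0.99, and on every array SUL1 lay above SUL2, by 1.56 to 2.97.

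Downstream of homocysteine the genes split. CYS3, which makes cysteine from cystathionine, rose by 2.74 ± 0.25 and STR3, which leads from cystathionine towards homocysteine, by 2.57. The methionine permease genes MUP3 (2.55) and MUP1 (1.82) rose, as did BDS1 (2.66), a sulfatase gene. SAH1, which clears S-adenosylhomocysteine, fell to -2.27 ± 0.24 and MET13, a methylenetetrahydrofolate reductase, to -1.56. SAH1 lay below 0 on 6 of 6 arrays and MET13 on 5. In all, 9 of 19 of these genes rose (47.4%) and 4 fell (21.1%), against 22.9% and 25.1% of all genes. The share that fell thus lay below that of all genes. The list median of 0.34 was -0.21 as deposited. Among their regulators MET28 rose by 1.23, MET30, the ligase subunit that restrains Met4, by 1.68 and MET4 itself by 0.40.

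Glutathione genes rose for synthesis and for breakdown. GSH1, which catalyses the opening and rate-limiting step of synthesis, had values of 1.49, 2.18 and 2.90 and a mean of 2.21 ± 0.17, while GSH2, the closing step, rose by 0.44. The degrading enzymes DUG2 (2.75 ± 0.14) and DUG3 (1.75) rose with them, whereas their partner DUG1 stood at -0.19. GLR1, glutathione reductase, rose by 1.35 and GLO1, glyoxalase I, by 2.05. In all 9 of 13 rose. The 1 fall was GEX2, a glutathione exchanger, at -2.89 ± 0.24, although its near-identical copy GEX1 rose by 0.67, so these 2 names carried opposite calls.

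Most genes of thioredoxins, peroxiredoxins and peroxide defence rose, and glutaredoxins and glutathione transferases were mixed. Of 11 thioredoxin and peroxiredoxin genes 8 rose, with a median of 1.19, and of 11 superoxide dismutase, catalase and peroxidase genes 10 rose, with a median of 1.36. None of either list fell by limma. PRX1, the mitochondrial peroxiredoxin, averaged 4.12 ± 0.19 and lay lowest on replicate 2 (3.10). TRX2, a cytosolic thioredoxin, averaged 2.94 ± 0.17, while TRX1, its sister, stood at 0.23. TSA2 (2.72) and TSA1 (2.14), cytosolic peroxiredoxins, and CTT1, the cytosolic catalase (3.45 ± 0.24), rose, as did MXR1, which repairs oxidised methionine (3.02), and SOD2, the mitochondrial superoxide dismutase (2.58). Of 15 glutaredoxin and glutathione transferase genes 7 rose, 2 fell and 6 were not called, with a median of 0.20 (-0.35 as deposited). GTO1, an omega-class glutathione transferase, rose by 2.31 and the glutaredoxin GRX2 by 2.03. GRX4, a monothiol glutaredoxin that takes part in iron sensing, fell to -0.42, a call lost without replicate 3, 4, 5 or 6. TEF4 also fell (-2.47), a translation elongation factor listed here for its transferase-like domain.

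Oxidoreductases that use NADPH held 5 of the 20 largest rises after OYE3 and GRE2. Of 20 such genes 17 rose, 15 of them over 2-fold. The aryl-alcohol dehydrogenase genes AAD6 (4.57), AAD14 (4.51), AAD15 (4.44), AAD3 (4.39), AAD10 (3.46) and AAD4 (2.73) resemble each other in sequence, so probes may not tell the copies apart. YML131W, a relative of quinone reductases, averaged 4.55 ± 0.22, with replicate 2, at 3.11, apart from the other arrays. The sister of OYE3, OYE2, rose by 1.97.

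Genes of arsenic transport and sensing moved far less. ARR3, the arsenite exporter, had values of 0.51, 1.38 and 1.80 (lowest, median and highest), a mean of 1.29 ± 0.19 or 2.44-fold, with a limma adjusted p of 1.4e-04. ARR2, the arsenate reductase, ran from 0.26 to 2.04 with a mean of 1.03 ± 0.20. Both genes lay above 0 on all 6 arrays. RGC1, a regulator of Fps1, rose by 0.77 ± 0.15, while its paralog ASK10 stood at 0.29 and FPS1 at 0.25. The stress kinase genes HOG1 (-0.12) and SLT2 (-0.16) were not called.

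ARR1, the activator of ARR2 and ARR3, averaged -0.11 ± 0.14 and was not called. Its arrays straddled 0, with replicate 1 at 0.29 and the other 5 arrays below 0. YCF1, the vacuolar transporter, fell to -1.03 ± 0.14, with 6 of 6 arrays below 0, from -1.39 to -0.53. PHO84, a phosphate transporter that also admits arsenate, fell to -1.83 ± 0.22. Among multidrug transporters and their regulators 7 of 19 genes rose (36.8%) and 2 fell (10.5%), against 22.9% and 25.1% of all genes. FLR1 rose by 2.34 ± 0.22 and ATR1 by 1.94. The polyamine exporters TPO2 (-1.26) and TPO3 (-1.18) fell, and both calls were lost without replicate 3 or 4.

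Of 23 stress transcription factors, 9 rose and 1 fell, with a median of 0.08 (-0.47 as deposited). After RPN4 came STB5, an activator of NADPH-producing genes (1.87 ± 0.18), and the repressors XBP1 (1.49) and NRG1 (1.48), then USV1 (1.15). YAP1, the main activator of the oxidative stress response, rose by 0.99 ± 0.15, and its relatives CIN5 (0.83), YAP5 (0.66) and YAP7 (0.52) rose less. CAD1, another member of that family, fell to -0.46, a call lost without replicate 3, 4, 5 or 6. HSF1, the heat shock factor, stood at 0.23, MSN2 at -0.18, MSN4 at -0.40, SKN7 at -0.34 and HOT1 at 0.01. GIS1 (0.38), YAP6 (0.08), SKO1 (0.03), YAP3 (-0.01), MGA2 (-0.10), SFP1 (-0.14) and ROX1 (-0.23) were not called either.

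GCN4, the activator of amino acid synthesis genes, fell to -3.02 ± 0.20, or 8.10-fold lower. Its values were -3.71, -3.17 and -2.28 (lowest, median and highest), all below 0. Of the regulators grouped with it, UGA3 fell as well (-0.66), and DAL80, a repressor of nitrogen use, rose by 1.78. Gcn4 is controlled largely at translation, so its transcript level is not its activity.

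**Figure D2:**
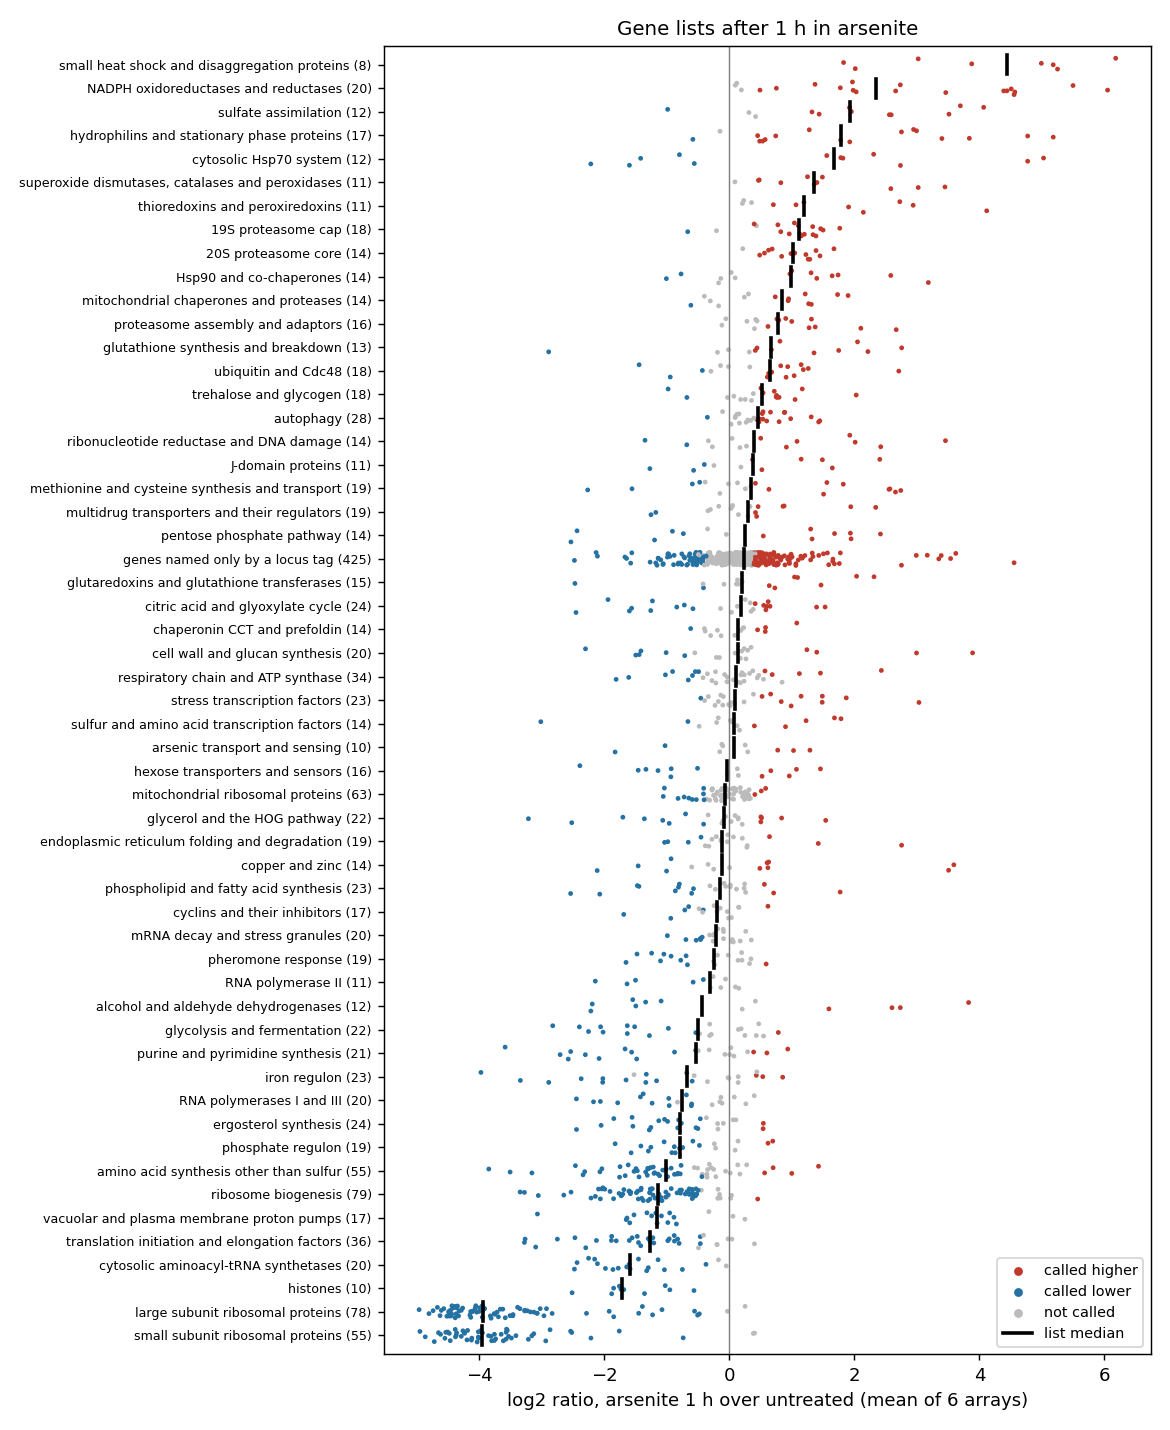
Log2 ratios of arsenite-treated (1 h) over untreated cells, as means of 6 arrays, for the members of 55 gene lists ordered by their median (black bar). Red points were called higher, blue points called lower and grey points not called, and the number of measured genes is in brackets. Small heat shock proteins sit highest at 4.43 and small and large ribosomal subunit proteins lowest at -3.95 and -3.94.

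Genes of the cytosolic ribosome fell together and further than any other list. Of 78 large subunit genes 76 fell and 0 rose, with a median of -3.94, and of 55 small subunit genes 53 fell and 0 rose, with a median of -3.95. Over both subunits the array medians of replicates 1 to 6 were -3.12, -3.47, -4.11, -4.02, -4.33 and -4.74. RPL3, a large subunit protein near the peptidyl transferase centre, had values of -6.35, -4.78 and -3.69 and a mean of -4.97 ± 0.23, or 31.2-fold lower. RPS0B, a small subunit protein, averaged -4.95 ± 0.25. All 20 of the largest falls and 48 of the 50 largest were ribosomal protein genes. Genes of mitochondrial ribosomal proteins did not share this: of 63, 10 fell and 3 rose, with a median of -0.08 (-0.63 as deposited).

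Most yeast ribosomal proteins are coded by a pair of near-identical genes, and 56 such pairs were measured. In 36 pairs the copies differed by less than 1 on the log2 scale, with a median difference of 0.72 in size over all pairs, and in 8 they differed by more than 2. RPS19A stood at 0.38 beside -3.95 for RPS19B, RPL15A at 0.25 beside -2.97 for RPL15B, and RPS30A at 0.40 beside -2.54 for RPS30B. RPL43B stood at -0.03 beside -3.95 for RPL43A. These copies RPS19A, RPL15A, RPS30A and RPL43B are the 4 ribosomal protein genes that were not called. On each of the 6 arrays RPS19A lay above RPS19B, by 2.47 to 5.26. The translation helicase genes TIF2 (-2.75 ± 0.19) and TIF1 (-0.02) and the exchanger genes GEX2 and GEX1 parted in the same way although their products are nearly or wholly alike. Whether those spots hold the gene they are named for was not tested.

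**Figure D3:**
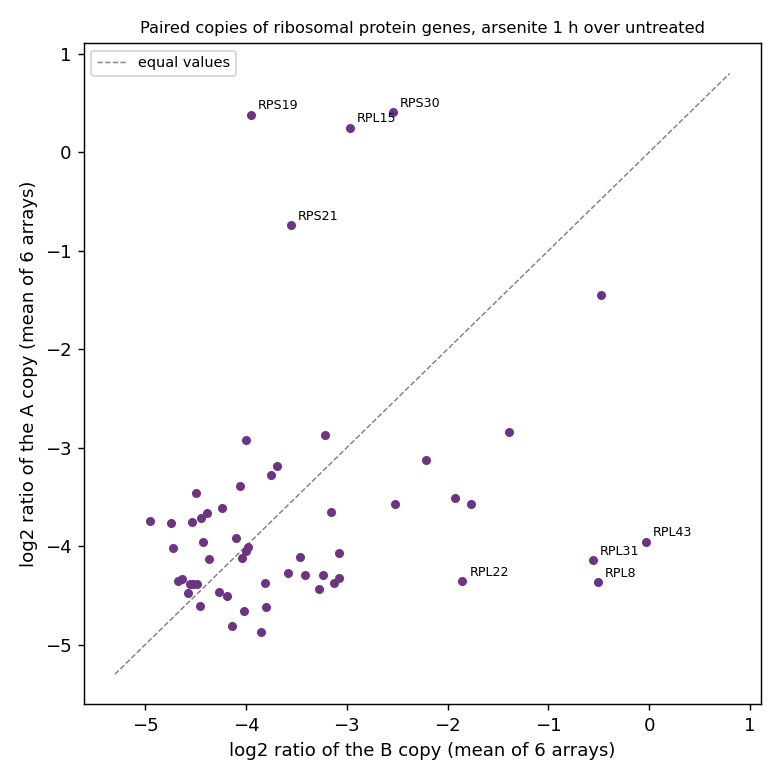
Mean log2 ratio of the A copy against that of the B copy for 56 pairs of cytosolic ribosomal protein genes, arsenite-treated (1 h) over untreated cells, with the line of equal values. Most pairs cluster between -3 and -5 on both axes, and the 8 named pairs differ by more than 2. RPS19A lies at 0.38 where RPS19B lies at -3.95.

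The machinery that builds ribosomes fell by less. Of 79 ribosome biogenesis genes 70 fell, with a median of -1.14, and 1 rose, UTP20 (0.45, below 0 as deposited). The core proteins of box C/D particles fell most, NOP58 to -3.35 ± 0.22 and NOP56 to -3.28 ± 0.20, then CBF5, the pseudouridine synthase of box H/ACA particles (-3.06), and NSR1, the nucleolin homolog (-2.65). Of the RNA polymerase I and III genes 12 of 20 fell, the second largest subunit of polymerase I, RPA135, to -2.45 ± 0.19, and RPA49 to -2.18. Among RNA polymerase II genes 5 of 11 fell, and 4 of these, RPB5 (-2.15), RPO26 (-1.64), RPB8 (-1.50) and RPB10 (-0.58), code for subunits shared by all 3 polymerases. The largest subunit gene of polymerase II, RPO21, stood at -0.26.

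Translation factors and tRNA charging enzymes fell too, and 0 genes of either list rose by limma. Of 36 initiation and elongation factor genes 29 fell, with a median of -1.26. EFT2 and EFT1, identical-protein copies of elongation factor 2, averaged -3.28 ± 0.17 and -3.10 ± 0.16, and YEF3, the fungal elongation factor 3, -3.27 ± 0.21. Replicate 4 of YEF3, at -2.01, lay above the other arrays. CDC33, the cap-binding protein, fell to -1.81. Of 20 cytosolic aminoacyl-tRNA synthetase genes 18 fell, with a median of -1.60, YHR020W for proline to -2.48, KRS1 for lysine to -2.44 and SES1 for serine to -2.25. ILS1 for isoleucine (-0.05) and VAS1 for valine (-0.18) were not called.

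Amino acid and nucleotide synthesis moved down while sulfur assimilation moved up. Of 55 amino acid genes outside sulfur metabolism, 36 fell, with a median of -1.01. ILV5 of the branched-chain pathway had values of -4.40, -3.97 and -3.21 (lowest, median and highest), GDH1, the glutamate dehydrogenase, averaged -3.51 ± 0.19, GLN1, the glutamine synthetase, -3.16 ± 0.25, and BAT1, the mitochondrial branched-chain aminotransferase, -2.46 ± 0.18. LYS1, which closes the lysine pathway (1.42), SER33 of serine synthesis (1.00) and the homoserine pathway genes HOM6 (0.70) and HOM3 (0.56) were the 4 that rose. For guanine nucleotides GUA1, the GMP synthase, fell to -3.59 ± 0.21 and the IMP dehydrogenase genes IMD3 and IMD4 to -2.71 and -2.58. Of 21 purine and pyrimidine genes 11 fell and 3 rose, and URA10 (0.93), a minor isozyme, was the largest of the rises.

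Genes of glucose use moved in both directions. Of 22 glycolysis and fermentation genes 11 fell and 1 rose, PDC6 (0.78), a minor pyruvate decarboxylase. CDC19, the main pyruvate kinase, averaged -2.83 ± 0.25, the phosphofructokinase genes PFK2 and PFK1 -2.26 ± 0.15 and -2.06 ± 0.17, and ADH1, the main alcohol dehydrogenase, -2.02 ± 0.21. TYE7, an activator of glycolytic genes, fell to -2.40 ± 0.43, although replicate 5 at -5.44 lay far below the other arrays. The glyceraldehyde-3-phosphate dehydrogenase genes TDH3 (0.19), TDH2 (0.25) and TDH1 (0.47) were not called.

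In the pentose phosphate pathway ZWF1, which makes NADPH from glucose-6-phosphate, rose by 1.68 ± 0.15, whereas GND1, the next NADPH-producing enzyme, fell to -0.74 and RKI1, the ribose isomerase, to -2.44 ± 0.30. NQM1 (2.42), TKL2 (1.95) and SOL4 (1.94) led the 7 of 14 that rose. Trehalose and glycogen genes rose in 10 of 18 cases, with TSL1 of the trehalose synthase at 2.03 ± 0.19 and the debranching enzyme GDB1 at 1.16, and the list median of 0.52 was -0.03 as deposited. Of 22 glycerol and HOG pathway genes 5 rose (22.7%) and 8 fell (36.4%), against 22.9% and 25.1% of all genes. The falls included GPP1 (-3.22 ± 0.26) and GPP2 (-1.70), both glycerol-3-phosphatases, and GUP1 (-2.52). GUT2, which oxidises glycerol-3-phosphate in mitochondria, rose by 1.54. Among hexose transporters, HXT3 (-2.39) and HXT2 (-1.46) led 7 falls, and HXT5 (1.46), a transporter of slow-growing cells, led 5 rises. HXT9 (0.96) and HXT11 (1.07) are near-identical copies.

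Citric acid cycle genes moved in both directions, with 8 of 24 higher (33.3%) and 9 lower (37.5%), against 22.9% and 25.1% of all genes. Succinate dehydrogenase subunits SDH1 (1.53 ± 0.22) and SDH4 (1.39) rose, and both subunits of isocitrate dehydrogenase fell, IDH2 to -2.46 ± 0.30 and IDH1 to -1.94, together with IDP1 (-1.60) and aconitase, ACO1 (-1.56). In the respiratory chain the cytochrome c genes CYC7 (2.43) and CYC1 (1.46) rose and the external NADH dehydrogenase gene NDE1 fell to -1.81 ± 0.26, while 21 of 34 were not called. The 34 held 5 rises (14.7%) and 8 falls (23.5%), both shares below those of all genes.

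Related genes for the same step parted in some cases, with opposite calls in 5 of 40 sets of 2 genes. With 22.9% of all genes called higher and 25.1% lower, unrelated genes would part at times too. The 5 of 40 was not set against unrelated genes. These 40 sets were compared as a description, the pairs having been put together after some of their values were known. ALD3, a stress-induced aldehyde dehydrogenase, rose by 3.83 ± 0.25 where ALD6, the main cytosolic acetaldehyde dehydrogenase, fell to -1.55 ± 0.15, a difference of 4.47 to 6.25 across arrays. Opposite calls were also found for the transketolases TKL2 (1.95) and TKL1 (-2.54), the transaldolases NQM1 (2.42) and TAL1 (-1.20), the phosphoglucomutases PGM2 (1.05) and PGM1 (-0.68), and the sulfate permeases SUL1 and SUL2. In 22 of the 40 the gene written left of the slash in the plot lay above its relative on all 6 arrays, and in 1, TIF2 beside TIF1, below it on all 6. With some values known, the order of names may favour the left gene, so 22 against 1 does not test a direction. Among those 22 were SSA4 beside SSA2 (by 2.58 to 4.33), OYE3 beside OYE2 (3.33 to 4.95), TRX2 beside TRX1 (1.78 to 3.72) and GPD1 beside GPD2 (0.72 to 2.31).

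**Figure D4:**
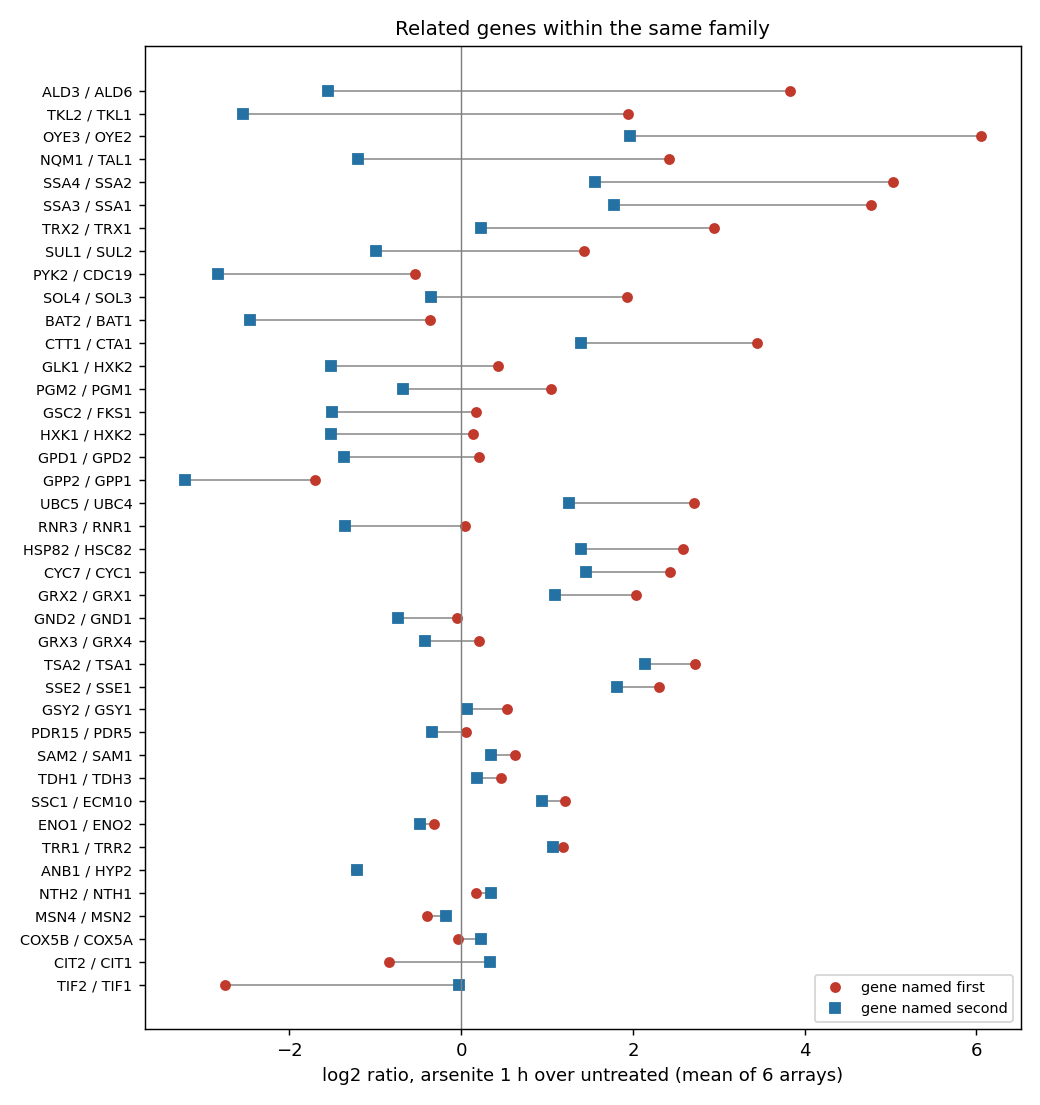
Mean log2 ratios of arsenite-treated (1 h) over untreated cells for 40 sets of 2 related yeast genes, ordered by their difference. Red circles are the gene written left of the slash and blue squares the gene written right of it. ALD3 at 3.83 and ALD6 at -1.55 lie furthest apart, and the ANB1 circle is hidden by HYP2 at -1.21.

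Many iron regulon genes fell and the metallothionein genes rose. Of 23 iron regulon genes 12 fell and 3 rose. FET3, the multicopper ferroxidase of high-affinity iron uptake, had values of -4.95, -4.32 and -2.77 (lowest, median and highest) and a mean of -3.98 ± 0.28, and FTR1, its permease partner, -3.35 ± 0.34, from -4.74 to -1.76. The siderophore genes FIT2 (-2.89) and SIT1 (-2.37) followed, and FRE6, a vacuolar reductase (0.85), rose. The list median ran from -1.60 to -0.12 by array, so the size of this fall varied widely. The metallothionein copies CUP1-1 (3.59 ± 0.16) and CUP1-2 (3.51 ± 0.16) rose, and YHR054C, which lies between them in the R64 gene order, read 3.16 ± 0.24. ZRT1, the high-affinity zinc transporter, fell to -2.12 ± 0.30 and ZRC1, a vacuolar zinc transporter, to -1.46.

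Phosphate genes fell in 13 of 19 cases, PHO84 most, then the acid phosphatase PHO3 (-1.57) and the polyphosphate synthase subunits VTC1 (-1.42) and VTC2 (-1.30). PHO89, a sodium-coupled phosphate transporter (0.69), and GIT1 (0.62) rose. Ergosterol genes fell in 16 of 24 cases, with ERG3 (-2.45 ± 0.34), ERG6 (-2.05) and ERG11 (-1.85), the target of azoles, and the regulator UPC2 (0.54) and ERG24 (0.54) rose, both just below 0 as deposited. Among phospholipid and fatty acid genes HNM1, the choline transporter (-2.54 ± 0.36), and OLE1, the fatty acid desaturase (-2.08 ± 0.28), fell, and the acyltransferase GPT2 rose by 1.77 ± 0.20. Proton pumps fell in 14 of 17 cases with 0 called higher by limma. PMA1, the plasma membrane ATPase that sets the proton gradient, had values of -3.67, -2.96 and -2.59 and a mean of -3.07 ± 0.15, and VMA2, a subunit of the vacuolar ATPase, fell to -1.65.

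All 10 histone genes fell, with a median of -1.71. HTA1, for histone H2A, fell most (-2.52 ± 0.21) and the variant gene HTZ1 least (-0.57). HTB2 lay at 1.11 on replicate 5 and below 0 on the other 5 arrays. Histone messages are made in S phase, and the labels give no cell cycle stage. CLN3, the cyclin that starts the cycle, fell to -1.69 ± 0.27 and CLN1 to -0.94, while CLN2 stood at 0.15. Among mitotic cyclin genes CLB1 rose (0.62) and CLB2 fell (-0.65). The call of CLB1 was lost as deposited and with treated RNA in Cy3 alone, and that of CLB2 without replicate 1, 4 or 6. Of 17 genes of cyclins and their inhibitors 5 fell, near the 25.1% of all genes, and 1 rose. The ribonucleotide reductase genes parted: the small subunits RNR4 (2.42 ± 0.24) and RNR2 (2.01) rose, the main large subunit RNR1 fell (-1.35 ± 0.27) and RNR3, induced by DNA damage, stood at 0.04. DDR48, a stress protein gene named for DNA damage, rose by 3.46.

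Of 20 cell wall genes 4 rose and 6 fell, shares near the 22.9% and 25.1% of all genes. Among them SPI1 (3.89 ± 0.25), YGP1 (2.99) and PIR3 (1.40) rose, and SRL1 (-2.30), CIS3 (-1.44) and the glucan synthase FKS1 (-1.50) fell. FKS1 read 1.44 on replicate 5 and below 0 on the other 5 arrays. Genes of hydrophilins and stationary phase rose in 15 of 17 cases, TMA10 by 3.84, RTC3 by 3.40 and GRE1, a hydrophilin, by 2.75. Autophagy genes rose in 15 of 28 cases, ATG8, whose product coats autophagosomes, by 1.45 ± 0.18 and the kinase ATG1 by 1.43 ± 0.19. The list median of 0.46 was -0.09 as deposited. Genes of mRNA decay and stress granules fell in 6 of 20 cases, near the 25.1% of all genes, with 0 higher by limma and 0 over 2-fold lower. PUB1 fell most (-0.99). Pheromone response genes fell in 9 of 19 cases, the kinase KSS1 to -1.66 ± 0.24 and the receptor STE2 to -1.48, and FUS1 rose (0.59).

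Among 425 genes known only by a locus tag, 129 rose (30.4%) and 60 fell (14.1%), against 22.9% and 25.1% of all genes. Their median of 0.23 was -0.32 as deposited. YML131W led them, then YKR070W (3.62 ± 0.21), YMR090W (3.54) and YLL066C (3.39). YKR070W lay at 2.19 on replicate 2, apart from its other arrays. The largest fall among them was YHR020W, the prolyl-tRNA synthetase gene given above.

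Some genes with large changes had no known tie to the lists. RHO4, a small GTPase of polarised growth, headed the falls outside the ribosome with values of -5.42, -4.54 and -3.35 and a mean of -4.46 ± 0.26. Its neighbour in the R64 gene order, DYN1, stood at -2.42. SFT1, a SNARE of the Golgi, averaged -4.22 ± 0.24 beside its neighbour RPL14A at -3.92. GPP1, a member of the glycerol list given above, lay beside RPL34B, which fell too. Among the rises, CAF4, a mitochondrial fission factor, averaged 4.21 ± 0.31 beside SPC34 at 2.35, and OSI1, a gene named for its response to oxidative stress, 4.09 ± 0.33 beside YKL070W at 3.35. Of the 20 largest rises, 18 had a measured neighbour and 4 a neighbour that rose over 2-fold, against 11.6% of all 5479 genes with a measured neighbour. Of the 20 largest falls outside ribosomal proteins, all had a measured neighbour and 8 a neighbour that fell over 2-fold, against 20.8% of the 5479. The part of shared or overlapping transcription, or of probes that reach into the next gene, was not tested. SEN1, a helicase of transcription termination (3.93 ± 0.24), FAR10 (-3.34) and DIA2 (-3.23) had no such neighbour.

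Differences from the other times came from a fit of all 15 arrays, in which the 30 min and 18 h arrays, all with treated RNA in Cy5, were corrected for the dye effect estimated at 1 h. Between 1 h and 30 min limma called 0 genes higher (0%) and 0 lower (0%), with 286 at an unadjusted p under 0.05. Without the dye term 21 were higher and 5 lower. BTN2 stood at 4.99 at 1 h and at a fitted 1.84 at 30 min (arrays 1.28 to 2.42 before the dye correction). The difference of 3.15 ± 0.95 was not called (limma adjusted p = 0.51). Before the dye correction, array medians of the small heat shock list were 3.54 to 5.20 at 1 h and 1.65 to 2.28 at 30 min. Those of large ribosomal subunit genes were -4.69 to -3.15 at 1 h and -3.41 to -0.40 at 30 min. The ribosomal ranges thus met, and the heat shock ranges did not. They set arrays with treated RNA in Cy5 alone against arrays of both dye orientations, and a difference between lists was not tested.

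Against 18 h, 20 genes (0.361%) were higher at 1 h and 58 (1.05%) lower, and chaperone genes had the largest positive differences. BTN2 was 4.69 ± 0.95 higher, with 1 h arrays between 3.79 and 5.81 and 18 h arrays between -1.95 and 3.14 before the dye correction (limma adjusted p = 0.024). SSA4 was 3.36 ± 0.64 higher, CPR6 2.83 ± 0.58 and FES1 2.58 ± 0.44. SIS1 (2.23), HCH1 (2.16) and the metallothionein copies CUP1-1 (2.54) and CUP1-2 (2.47) were among the others, as were MET14 (2.15), MET16 (2.04), DUG2 (2.36) and OYE3 (1.80).

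Genes lower at 1 h than at 18 h included nutrient and metabolic genes. INO1, for inositol-3-phosphate synthase, had a log2 difference (1 h minus 18 h) of -4.33 ± 0.26. Before the dye correction its 1 h arrays ran from -0.01 to 1.24 and its 18 h arrays from 4.37 to 4.50, so that the groups did not overlap. With the correction its fitted 18 h value was 4.89. TPO2 differed by -4.06 ± 0.91, ZRT1 by -4.01 ± 0.72 and HXT3 by -3.84 ± 0.74. Of the 16 hexose transporter and sensor genes 6 were called lower at 1 h than at 18 h and 0 higher by limma, HXT7 (-3.67) and HXT6 (-3.19) among them. ARR2 stood at 1.03 at 1 h and a fitted 4.11 at 18 h, a difference of -3.09. GCN4 (-3.18), PMA1 (-3.49), GPP1 (-3.34) and PFK1 (-2.44), all of which fell at 1 h, were also among the 58.

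These counts depended on the dye term and on single arrays. Without the dye term 114 genes were higher and 164 lower. With it they were 1 and 8 without 18 h replicate 3, 5 and 11 without 1 h replicate 4, 2 and 14 without 1 h replicate 5, and 6 higher without 18 h replicate 1. As deposited, without centring, 1 gene was higher and 1014 were lower.

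**Figure D5:**
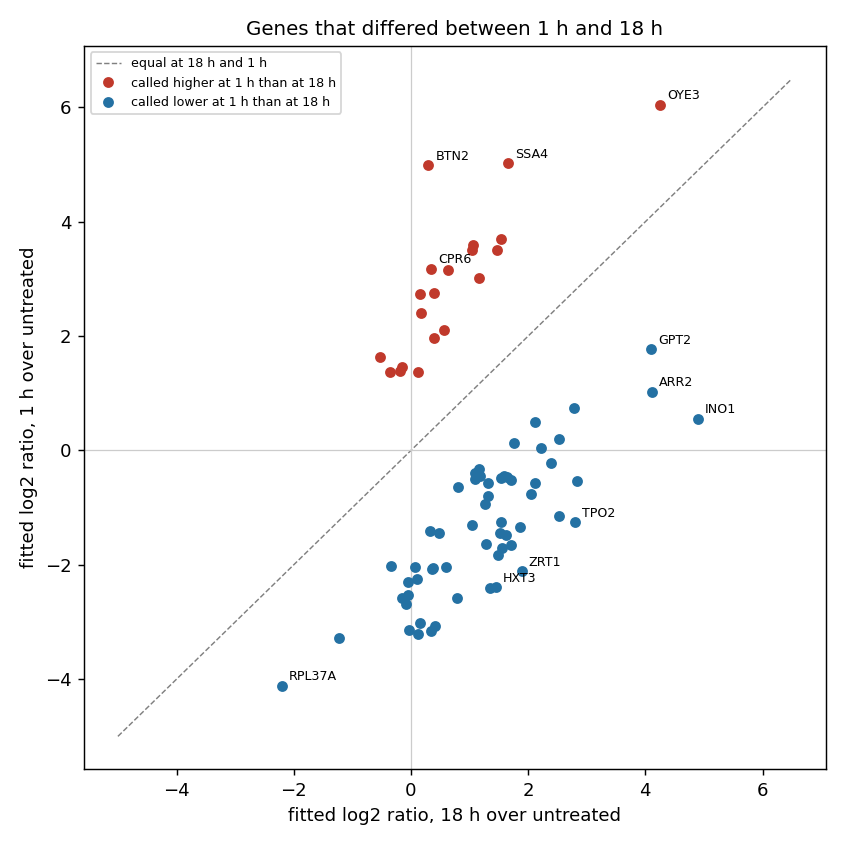
Fitted log2 ratios over untreated cells at 1 h (vertical axis) and 18 h (horizontal axis) of arsenite for the 78 genes called different between these times, with the line of equal values. Red points were higher at 1 h and blue points lower. BTN2 lies at 4.99 at 1 h and 0.30 at 18 h, and INO1 at 0.56 at 1 h and 4.89 at 18 h.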

How the data were processed

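The authors deposited log2 ratios of 13056 spots for each array, with 0 values missing. Scanner files were not used here, and no source used here gives the scanning, background correction or normalisation. Replicates 1, 3 and 6 (treated RNA in Cy3) held 30, 5 and 23 zeros with a minus sign, and the other 3 arrays 0. From this it was inferred, not known, that the Cy3 ratios had been turned before deposit. Spots with 1 gene name in the platform annotation (11138, of which 11128 matched the gene table of assembly R64) were averaged by gene, and 1918 unnamed spots were left out. Each array was centred on its gene median. Arrays at 1 h were fitted with limma 3.58.1 in R 4.3.3 (lmFit, eBayes, a mean and a gene-specific dye term, 4 residual degrees of freedom), tested against 0 (two-sided, Benjamini-Hochberg over 5539 genes) and called at an adjusted p under 0.05. Errors are limma standard errors. Differences from 30 min and 18 h came from 1 such fit over 15 arrays (10 residual degrees of freedom). Tables and plots were made in Python, and the fits were tested on simulated data.

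Gene lists and their members were chosen with earlier results of these data known. The ribosomal protein list was corrected after its values were seen, by removing an RNase P gene that its name had drawn in. Genes were named by rule: the 20 largest rises, the 20 largest falls outside cytosolic ribosomal proteins, up to 4 called members of each list in its more frequent direction and up to 3 in the other, all arsenic and stress factor genes, and the 4 largest differences each way from the other times. Genes outside it (uncalled members, sister genes, copies and neighbours) were chosen after their values were seen. Array number limits the precision, and signal over background is unknown.

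The labels give 1 h and 30 min arrays the same replicate numbers, 1 to 3. Deviations from the means of replicates 1 to 3 in each group correlated across genes with r of 0.41, 0.10 and 0.37 between arrays of the same number. Each lay over 0.1 (the second barely), so these numbers were taken to pair the arrays. Arrays of unlike number gave r of -0.36 to 0.24, and the 0.24, of 1 h array 3 with 30 min array 2, exceeds the 0.10. Between 1 h and 18 h, unlike numbers reached 0.46. The pairing thus remains an assumption that these values do not settle. The 1 h arrays 1 and 3 also differ from array 2 in dye orientation. With the number as a block, limma still called 0 genes between 1 h and 30 min, a count known when the correlations were computed.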

Additional observations from a re-analysis of the deposited data

Results flagged for a closer look

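Of the 339 named genes, 18 had 1 array of the 6 apart from the rest by Dixon's test at 95%, close to the 1 in 20 groups that chance alone gives. On replicate 1 the high values were 0.29 for ARR1, -0.24 for MRPL9, 2.80 for PRE8, 2.28 for RPN5, 2.66 for RPT5 and 1.46 for UPC2. On replicate 2 the low values were 0.92 for DUG3, 3.10 for PRX1, 2.19 for YKR070W and 3.11 for YML131W. Replicate 2 was also the array with the smallest spread of ratios. On replicate 4 ERG11 was low at -2.77, SKO1 low at -0.42 and YEF3 high at -2.01. On replicate 5 ACS2 (0.26), FKS1 (1.44), HTB2 (1.11) and RNR1 (0.47) were high although their other 5 arrays lay below 0, and TYE7 was low at -5.44.

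Limma's test of the difference itself called 20 genes higher and 58 lower at 1 h than at 18 h, and the 4 largest differences each way were singled out. BTN2 was higher at 1 h by 4.69, SSA4 by 3.36, CPR6 by 2.83 and FES1 by 2.58. The differences of INO1 (-4.33), TPO2 (-4.06), ZRT1 (-4.01) and HXT3 (-3.84) were negative, lower at 1 h than at 18 h.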

How the results depend on the processing

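Of the 339 named genes, the number that kept direction and call was 339 with exactly 2 spots per gene, 334 with no dye term, 334 with a robust prior, 331 with arrays scaled to equal spread, 324 with all 15 arrays in the fit, 305 and 286 with treated RNA in Cy3 or Cy5 alone, 315 to 336 without each replicate in turn, and 284 as deposited. Against untreated cells, 371 genes were higher and 2998 lower as deposited, and 719 higher with treated RNA in Cy5 alone. Without each replicate in turn the counts were 923 to 1302 higher and 1168 to 1456 lower. Some named calls hung on single arrays, and those given here are not all of them. The call of ATG20 was lost whichever replicate was left out, and that of ADE6 without 1, 2, 3, 4 or 5. Those of CAD1, CCC1, CRS5, ERG24, GRX4, STE11 and UTP20 were lost without replicate 3, 4, 5 or 6. Those of SAN1 and MRP17 were lost without 1, 4, 5 or 6. The calls of TPO2 and TPO3 were lost without replicate 3 or 4, UPC2 without 1 or 4 and FUS1 without 5 or 6. As deposited, ADE6 (-0.16), AFT2 (-0.017), CCC1 (-0.12), CCT5 (-0.10), ERG24 (-0.012), MRP17 (-0.041), RSM24 (-0.14), STE11 (-0.037), UPC2 (-0.0076), UTP20 (-0.10) and YAP7 (-0.028) turned below 0, as the lower array medians bring about. ATG20 stood at 0.072 with treated RNA in Cy3 alone and CCT5 at -0.011 with it in Cy5 alone, and the cause was not tested.

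Between 1 h and 30 min, 21 genes were higher and 5 lower with no dye term, and leaving out single arrays gave 0 to 1 higher and 0 lower. Between 1 h and 18 h, 1 was higher and 1014 lower as deposited, 114 and 164 with no dye term, and 13 higher with treated RNA in Cy5 alone. Leaving out single arrays gave 1 to 26 higher and 8 to 78 lower. With the replicate number as a block, 0 genes were higher and 1 lower at 1 h than at 18 h. Arrays with the same number there deviated with r of -0.47, 0.02 and -0.34, so they were not taken as pairs. Promoter motifs were planned and not run. Spot brightness is unknown, so weak spots could not be set apart.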
